A study of Mus musculus with 2 samples.

Results

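Translation factors and aminoacyl-tRNA synthetases were taken as the genes whose symbols, as the deposited tables list them, begin with Eif1 to Eif6, Eef1 or Eef2, or are Etf1, Gspt, Eprs or a one-letter amino acid code followed by ars, without the Eif2ak kinases. The rule used names and no measured value, and it found 99 of the 23793 gene rows. They were compared between 2 libraries of polyadenylated RNA, 1 from GFP+ and 1 from GFP- cells. Both came from small-intestinal organoids, which are epithelial cultures that grow from isolated crypts in a gel, made from mice of the strain ChgA-GFP. In these mice green fluorescent protein (GFP) reports the chromogranin A gene, which enteroendocrine cells, the hormone-releasing cells of the gut lining, express. Both fractions shared the strain and the culture, whose medium held epidermal growth factor, noggin and R-spondin. After dissociation the cells were sorted by fluorescence, and about 1% of the epithelial cells were GFP+. The GFP- fraction was the remaining epithelium and not a single cell type, and the labels give no age, sex or number of mice for either fraction.

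Translation starts when the initiation factors (eIFs) bring the initiator tRNA and the small ribosomal subunit to a messenger RNA, and the elongation factors (eEFs) then move the ribosome along it until release factors free the protein. Aminoacyl-tRNA synthetases charge each tRNA with its amino acid, with separate sets of enzymes for the cytosol and for mitochondria. In the gut lining, where crypts renew the tissue by constant division and Paneth, goblet and enteroendocrine cells make large amounts of secreted protein, this machinery serves both growth and secretion.

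Values are FPKM, in which fragment numbers are divided by transcript length and by library size, so levels of different genes may be set side by side. Differences are log2((FPKM + 1) in GFP+ / (FPKM + 1) in GFP-), so that 1 stands for 2-fold higher and -1 for 2-fold lower in GFP+ cells, and low genes are understated. With 1 library a fraction there was no replicate check, no difference could be tested, and genes are described by size alone. In such bulk samples, a change in the mix of cells and a change in RNA per cell cannot be told apart. The deposited intervals were wide: the lower bound was 0 in all 99 rows, and the upper bound was a median of 2.34 times the value in the GFP+ library and 2.33 times in the GFP- library. Among the 93 rows that reached 1 FPKM in each library, 51 had each value under the upper bound of the other library.

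The sort was checked on cell type markers. Of 11 enteroendocrine markers, 10 were at least 4-fold higher in GFP+ cells, with summed levels of 6222 FPKM in GFP+ and 142 FPKM in GFP- cells. All 9 Paneth markers were at least 4-fold lower, with sums of 1133 FPKM in GFP+ and 18406 FPKM in GFP- cells, and so were 14 of 24 cell cycle markers, with sums of 478 and 2279 FPKM in GFP+ and GFP- cells. Of the cell cycle markers 19 were at least 2-fold lower, while 3 were above 0. Of the other epithelial lists, 2 of 6 stem cell, 2 of 8 goblet, 2 of 6 tuft and 2 of 10 enterocyte markers were at least 4-fold lower. None of them was 4-fold higher. Of all genes 4.59% were 4-fold lower and 7.09% higher. At 2-fold, 4 stem cell, 4 goblet, 5 tuft and 4 enterocyte markers were lower (against 23.1% of all genes). The only ones 2-fold higher were 2 enterocyte markers (against 20.1%). No marker of these 7 lists was at 0 in either library. Of the measured markers of cells outside the epithelium, 1 of 3 for immune cells and 2 of 4 for mesenchymal and endothelial cells were at least 4-fold higher in GFP+ cells. At 2-fold, 2 of the 3 immune and all 4 mesenchymal and endothelial markers were higher (against 20.1% of all genes), and none was lower. Their sums were 9.61 and 252 FPKM in GFP+ cells and 2.54 and 5.11 FPKM in GFP- cells. Vim had 237 FPKM in GFP+ and 4.90 FPKM in GFP- cells and Pecam1 had 10.4 and 0.187 FPKM, whereas the T cell gene Cd3e had 0 and 0.0404 FPKM and the pan-leukocyte gene Ptprc had 0.0224 FPKM in each. The endothelial gene Cdh5 had 0.00845 FPKM in GFP+ cells and was listed at 0 in GFP- cells. Cd3e, Ptprc and Cdh5 are not among the measured markers counted above, which reached 1 FPKM in the higher library. The part of these shifts in the differences below was not tested.

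Most of the translation genes were lower in GFP+ cells. Of the 99 genes, 95 reached 1 FPKM in the higher library, of which 2, Eif5a2 and Eif4ebp3, did so in the GFP+ library alone, which fixes the sign of their difference. Their median difference was -1.01, beside -0.12 over all 11868 genes at that level. There were 73 genes below 0 and 22 above. At least 2-fold lower were 49 of the 95 (51.6%), against 23.1% of all genes, and at least 2-fold higher were 4 (4.21%), against 20.1% of all genes. The 4 were Eif4e3, Eif4g3, Eif5a2 and Nars2. At 4-fold, 5 genes were lower (5.26%, against 4.59% of all genes), namely Lars2, Eef1e1, Eef1g, Ears2 and Eif3i, and 2 were higher (2.11%, against 7.09% of all genes), Eif4e3 and Eif4g3. The lower share at 4-fold was thus close to that of all genes, while the share at 2-fold was above it.

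The split depended on how the libraries were scaled. The deposited GFP+ values were lower for most abundant genes, with a median log2 ratio of -0.50 over the 5563 genes with 10 FPKM or more in each library. Setting that median to 0 moved the median of all genes to 0.35 and left 25 translation genes at least 2-fold lower (26.3%, against 12.5% of all genes) and 13 at least 2-fold higher (13.7%, against 30.2%). With both libraries brought to 1 summed FPKM the median of all genes was 0.46, and the counts were 19 lower (20%, against 10.4%) and 14 higher (14.7%, against 33.3%). The median of the translation genes was -0.54 and -0.42 under these scalings, below that of all genes in both. A measure that scaling does not touch is their share of the summed FPKM, which was 1.62% in GFP+ and 2.25% in GFP- cells. Without Lars2 it was 1.60% and 2.06%, and without the 100 most abundant genes it was 1.58% and 1.92%.

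**Figure D1:**
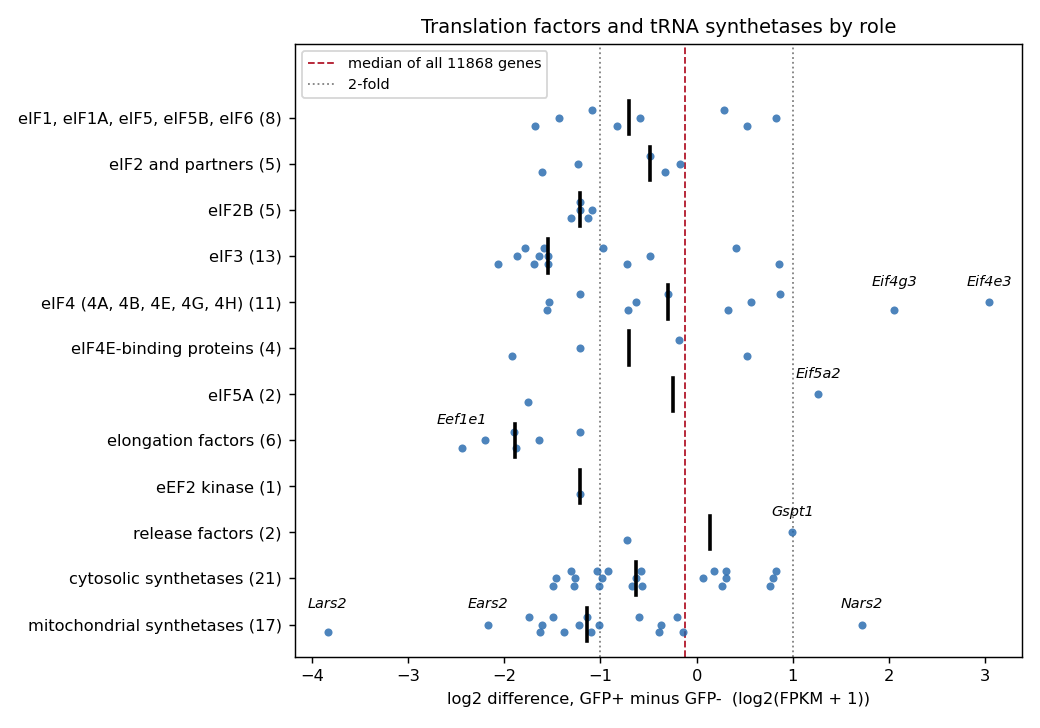
Log2 difference between GFP+ and GFP- cells for the 95 translation genes that reached 1 FPKM in the higher library, in 12 groups by role with the number of genes in brackets. Each point is a gene, the black bar is the median of its group, the dashed line is the median of all 11868 genes at -0.12, and dotted lines mark 2-fold. As deposited, the elongation factors and eIF2B lie wholly left of the 2-fold line, and Lars2 and Eif4e3 are the outermost points.

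The difference between the libraries also followed transcript length across all genes. Over 5206 genes with 10 FPKM or more in each library, with lengths from GENCODE M21, log2 length and the difference had r = 0.46 and rho = 0.50, a description across genes, which are not independent replicates. Genes with transcripts of up to 1500 bases had a median difference of -1.30 (1010 genes), and genes over 4000 bases had 0.17 (1059 genes). The 79 translation genes at that level ran along with length likewise, with r = 0.43 and rho = 0.51. Their median was -1.58 up to 1500 bases (9 genes), -1.55 between 1500 and 2000 bases (13 genes), -1.01 between 2000 and 3000 bases (25 genes), -0.65 between 3000 and 4000 bases (18 genes) and 0.0015 above 4000 bases (14 genes). In each bin it was below the median of all genes, which was -0.86, -0.47 and -0.13 in the 3 middle bins.

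Each gene was therefore also set against the genes nearest to it in length. After this centring the 79 genes had a median of -0.47, beside a median close to 0 over all genes by construction, with 59 below 0 and 20 above. At least 2-fold lower were 17 (21.5%, against 11.4% of all genes), and at least 2-fold higher were 4 (5.06%, against 11.9% of all genes), now Eif1, Gars, Gspt1 and Nars2. Centred medians are given below for the groups by role of 5 or more genes, with centred values for some of the genes. Among the genes whose sign changed were Eif1b, Eif3l, Eif2a and Rars2, at 0.74, 0.03, 0.21 and 0.41 after centring. The part of length in any single difference was not tested.

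**Figure D2:**
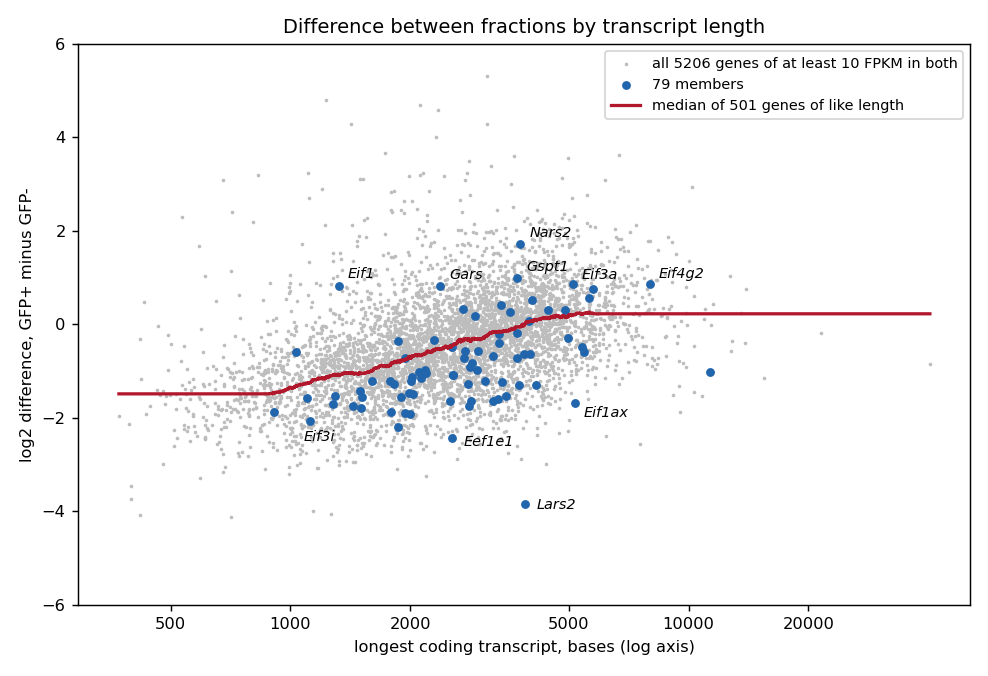
Longest coding transcript in bases (log axis) against the log2 difference between GFP+ and GFP- cells. Grey points are the 5206 genes with 10 FPKM or more in each library (2 lie outside the plotted range), blue points are 79 translation genes, and the red line is the median of genes nearest in length; most blue points lie under the red line, 59 of 79, while Eif1, Gars, Gspt1 and Nars2 lie more than 1 above it.

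Among the factors that open initiation, eIF2 carries the initiator tRNA to the ribosome and eIF2B recharges eIF2 with GTP. All 5 eIF2B genes were lower in GFP+ cells, by 2-fold or more as deposited (100%, against 23.1% of all genes), though none of the 5 reached 2-fold under either of the other scalings, where they lay between -0.83 and -0.47. Eif2b5, the catalytic subunit, had 48.3 FPKM in GFP+ and 103 FPKM in GFP- cells (-1.08), and Eif2b3 had 17.4 and 44.4 FPKM (-1.30). The other 3 genes, Eif2b1, Eif2b2 and Eif2b4, lay between -1.13 and -1.21. As deposited the 5 genes had a median of -1.21. After centring on length they ranged from -1.25 for Eif2b3 to -0.23 for Eif2b2, with a median of -0.49, and 1 gene was past 2-fold. Eif2b4 is listed under a merged locus, with upper bounds of 229 FPKM in GFP+ and 412 FPKM in GFP- cells.

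All 3 subunits of eIF2 were below 0 as deposited. Eif2s1, the alpha subunit that stress kinases phosphorylate, had 36.3 FPKM in GFP+ and 86.6 FPKM in GFP- cells (-1.23, and -1.07 centred). Eif2s2, the beta subunit, had 26.4 and 37.4 FPKM (-0.48, and -0.02 centred). Eif2s3x, the X-linked gamma subunit, had 3.25 and 3.78 FPKM (-0.17), and its Y-linked copy Eif2s3y had 0.125 FPKM in GFP+ cells and was listed at 0 in GFP- cells. Eif2d and Eif2a, which are not subunits of eIF2 but can deliver tRNA to the ribosome by other routes, had 22.6 and 16.4 FPKM in GFP+ against 70.7 and 20.9 FPKM in GFP- cells (-1.61 and -0.33). As deposited 2 of these 5 genes were at least 2-fold lower (40%, against 23.1% of all genes), and 1 under either other scaling (against 12.5% and 10.4%). Their median was -0.48 as deposited, and it turned to 0.000125 with the median ratio set to 0 and to 0.12 with 1 summed FPKM, each time below the median of all genes. After centring on length it was -0.55, over the 4 genes with a centred value.

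eIF3 is the many-subunit scaffold that holds the small ribosomal subunit for messenger RNA recruitment. Most of its genes were lower in GFP+ cells, with a median of -1.55. As deposited 8 of its 13 genes were lower by 2-fold or more (61.5%, against 23.1% of all genes) and none was 2-fold higher (against 20.1%). With the median ratio set to 0, 8 were at least 2-fold lower (against 12.5% of all genes) and 1 was higher (against 30.2%). With 1 summed FPKM, 5 were lower (against 10.4%) and 2 were higher (against 33.3%). Eif3i had 59.0 FPKM in GFP+ and 250 FPKM in GFP- cells (-2.07), Eif3k had 61.7 and 227 FPKM (-1.86, and -0.40 centred), and Eif3e had 59.2 and 207 FPKM (-1.79). Eif3m, Eif3f, Eif3g, Eif3d and Eif3h lay between -1.70 and -1.54, and Eif3l and Eif3j1 were at -0.72 and -0.49. Eif3g, the most abundant subunit in GFP- cells, had 91.4 FPKM in GFP+ and 276 FPKM in GFP- cells.

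Eif3a and Eif3c, large subunits of the eIF3 core, were above 0. Eif3a had 45.9 FPKM in GFP+ and 24.9 FPKM in GFP- cells (0.86), and Eif3c had 165 and 124 FPKM (0.41). Eif3c was the most abundant eIF3 gene in the GFP+ library. Eif3b, another large core subunit, had 126 FPKM in GFP+ and 250 FPKM in GFP- cells (-0.98). Over the 13 genes the difference and log2 transcript length had r = 0.82 and rho = 0.82. The transcript of Eif3i has 1123 bases, that of Eif3k 909, that of Eif3c 3383 and that of Eif3a 5125. After centring, the median of the 13 genes was -0.62, Eif3a and Eif3c were at 0.65 and 0.56, Eif3i was at -0.82, and only Eif3f, at -1.17, was past 2-fold.

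The factors of start-site selection and subunit joining had a median of -0.71 over 8 genes, and -0.10 with both libraries brought to 1 summed FPKM. After centring on length it was -0.38, over 7 genes. As deposited 3 of the 8 genes were at least 2-fold lower (37.5%, against 23.1% of all genes) and none was 2-fold higher (against 20.1%). Under either other scaling 1 was lower (against 12.5% and 10.4%) and 2 were higher (against 30.2% and 33.3%). Eif1ax, an X-linked gene of eIF1A, which with eIF1 keeps the scanning ribosome open, had 33.5 FPKM in GFP+ and 110 FPKM in GFP- cells (-1.68). Its transcript is long, at 5172 bases, so that centring gave -1.89. Eif6, which keeps the ribosomal subunits apart, had 163 and 440 FPKM (-1.43, and -0.38 centred).

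Eif1, the gatekeeper of start codon choice, was higher in GFP+ cells. It had 346 FPKM in GFP+ and 194 FPKM in GFP- cells (0.83), and with a transcript of 1322 bases it stood 1.91 above genes of like length, the largest centred value among the 79 genes. Eif5, which triggers GTP hydrolysis by eIF2, had 174 and 121 FPKM (0.52). Eif1b, the close relative of Eif1, had 42.2 FPKM in GFP+ and 63.7 FPKM in GFP- cells (-0.58, and 0.74 centred). Eif1a and Eif1ad were at -0.83 and -1.09, and Eif5b, which joins the ribosomal subunits, was at 0.29 from 9.19 FPKM in GFP+ and 7.35 FPKM in GFP- cells. GENCODE M21 lists 3 pseudogenes that carry the name of Eif1, and how fragments that match several places were shared out is not given in the sources used here.

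The eIF4 factors bind the cap, unwind the leader of the messenger RNA and bridge it to the ribosome. They were spread more widely than any other group but the mitochondrial synthetases, between -1.56 and 3.04 over 11 genes. Their median was -0.30 as deposited, and it turned to 0.19 with the median ratio set to 0 and to 0.31 with 1 summed FPKM, each time below the median of all genes. After centring on length it was -0.38, over 9 genes that leave out Eif4e3 and Eif4g3. As deposited 2 of the 11 genes were at least 2-fold higher (18.2%, against 20.1% of all genes) and 3 lower (27.3%, against 23.1%). Both are near the share of all genes. The counts were 4 and 2 with the median ratio set to 0 (against 30.2% and 12.5% of all genes). With 1 summed FPKM they were 4 and 0 (against 33.3% and 10.4%). Eif4e3, a cap-binding relative of eIF4E that in mouse binds the cap without the usual pair of stacking aromatic residues, had 25.8 FPKM in GFP+ and 2.25 FPKM in GFP- cells, a ratio of 11.5 (3.04). By the steps in the deposited values this stands for about 3861 and 334 fragments, and the GFP+ value lies above the upper bound of the GFP- library, 6.45 FPKM. Its listed locus is chr6:99625137-99666771 in mm10. Eif4g3, a scaffold related to Eif4g1, had 22.3 and 4.62 FPKM, a ratio of 4.83 (2.05), and the GFP- upper bound was 11.1 FPKM. Its locus is shared with another row of the files, as happens for 24 of the 99 genes, Eif4a2, Eif4g1 and Gspt1 among them.

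The main cap-binding gene Eif4e had 63.2 FPKM in GFP+ and 78.1 FPKM in GFP- cells (-0.30, above 0 under both scalings, and -0.46 centred). Eif4e2, whose protein represses translation of selected messenger RNAs, had 26.4 and 78.3 FPKM (-1.53, and -1.40 centred). Eif4e3 thus made up 29.0% of the Eif4e and Eif4e3 sum in GFP+ cells and 2.80% in GFP- cells. Eif4e2 made up 29.4% of its sum with Eif4e in GFP+ cells and 50.1% in GFP- cells. Of the 3 cap-binding genes, Eif4e was the most abundant in GFP+ cells, and Eif4e and Eif4e2 were level in GFP- cells.

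Relatives among the helicase and scaffold genes also differed from each other. Eif4a1, the general RNA helicase of initiation, had 21.9 FPKM in GFP+ and 52.0 FPKM in GFP- cells (-1.21, and -0.32 centred), while its relative Eif4a2 had 31.2 and 24.7 FPKM (0.32). Eif4a2 accordingly held 58.7% of their sum in GFP+ cells and 32.2% in GFP- cells. Eif4g1, the main scaffold, had 91.6 and 61.7 FPKM (0.56), and Eif4g2, a scaffold without the cap-binding partner site, had 203 and 111 FPKM (0.87). Eif4g3 held 19.6% of its sum with Eif4g1 in GFP+ cells and 6.97% in GFP- cells. Eif4a3, which belongs to the exon junction complex and not to initiation, had 80.2 and 238 FPKM (-1.56, and -0.51 centred). Eif4h and Eif4b, which assist the helicase, had 245 and 54.0 FPKM in GFP+ against 402 and 84.0 FPKM in GFP- cells (-0.71 and -0.63).

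**Figure D3:**
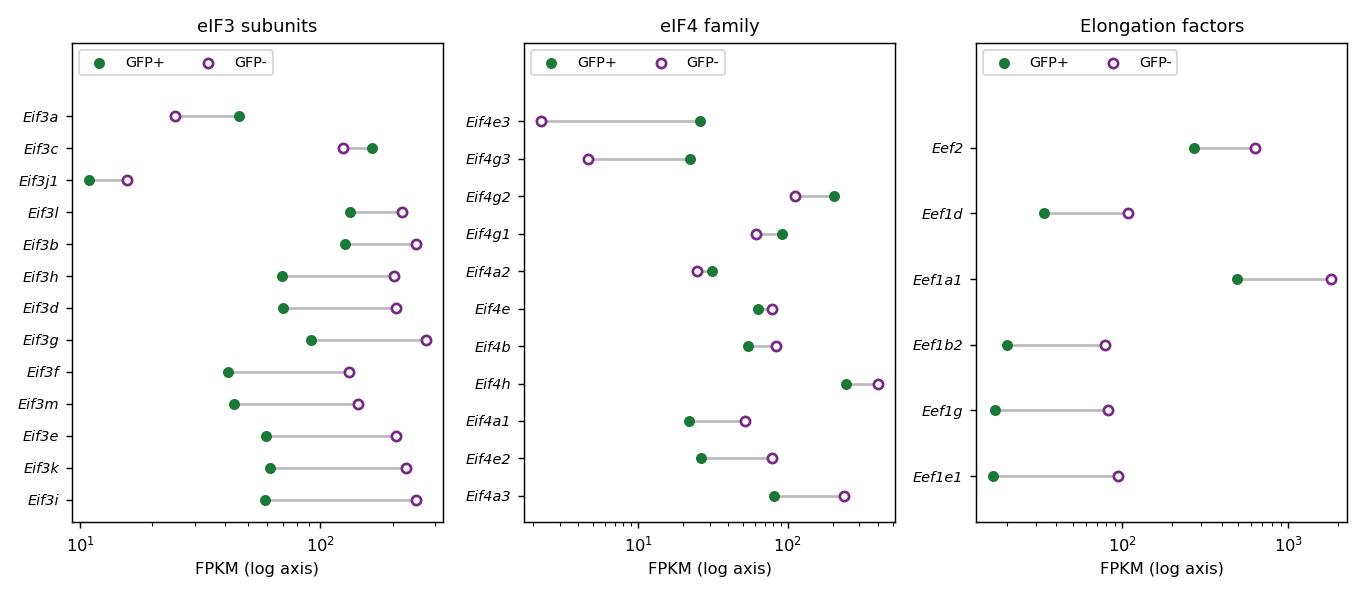
FPKM (log axis) of the eIF3 subunits, the eIF4 family and the elongation factors in GFP+ cells (filled green) and GFP- cells (open purple), 1 library each, with genes ordered by their difference. Eif3a, Eif3c and 5 eIF4 genes have the green point to the right, and all 6 genes named as elongation factors, Eef1e1 included, have it to the left.

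**Figure D4:**
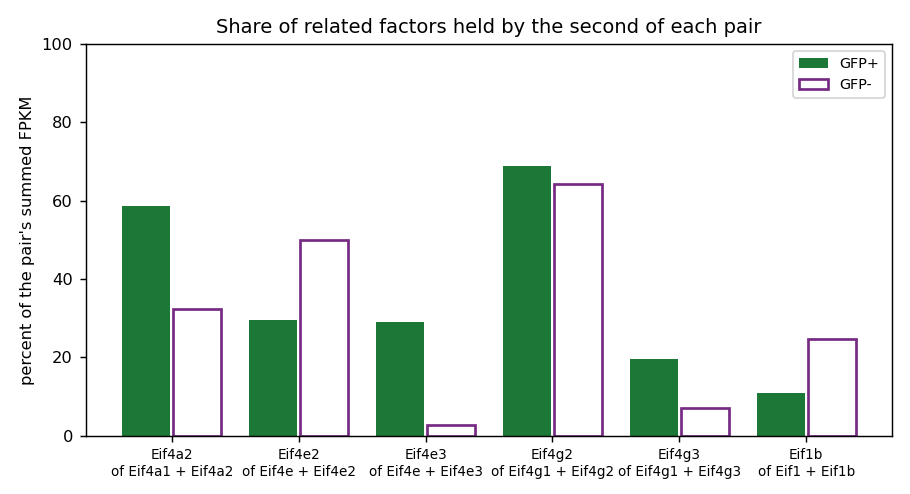
Percent of the summed FPKM of 2 related genes held by the second of them, in GFP+ cells (filled) and GFP- cells (open), 1 library each. Eif4a2, Eif4e3 and Eif4g3 held more of their pair in GFP+ cells, at 58.7%, 29.0% and 19.6%, than in GFP- cells, and Eif4e2 and Eif1b held less, at 29.4% and 10.9%.

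The eIF4E-binding proteins, which block the cap-binding factor when the mTOR kinase is inactive, were mostly lower. Eif4ebp1 had 49.7 FPKM in GFP+ and 191 FPKM in GFP- cells (-1.92, and -1.23 centred), and Eif4ebp2 had 2.50 and 7.11 FPKM (-1.21). Eif4ebp1 dominated in both fractions, since Eif4ebp2 held 4.80% of their sum in GFP+ and 3.59% in GFP- cells. Eif4ebp3 had 1.46 and 0.713 FPKM (0.52), and Eif4enif1, which carries eIF4E into the nucleus, had 10.8 and 12.4 FPKM (-0.19).

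Eif5a, whose protein carries the modified lysine hypusine and helps the ribosome past difficult stretches, was the most abundant translation gene in both libraries. It had 600.3 FPKM in GFP+ and 2028 FPKM in GFP- cells (-1.75, and -0.71 centred), which placed it 47th of all genes in the GFP+ library and 19th in the GFP- library. Its listed locus is chr11:69916712-69921958. Eif5a2, the second gene of the family, had 2.08 FPKM in GFP+ and 0.279 FPKM in GFP- cells, a ratio of 7.44 (1.27), from about 622 and 83 fragments. Its GFP+ value lies above the GFP- upper bound of 0.757 FPKM. It passed the filter through the GFP+ library alone, which fixes the direction of its difference. With a pseudocount of 5 that difference was 0.42. Eif5a2 made up 0.345% of the sum of both genes in GFP+ and 0.0138% in GFP- cells.

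The genes named as elongation factors were lower in GFP+ cells without exception among the 6 genes of at least 1 FPKM. The median was -1.89, and -1.28 with both libraries brought to 1 summed FPKM. As deposited all 6 passed 2-fold (100%, against 23.1% of all genes), and after either rescaling 5 did (against 12.5% and 10.4%). Eef1a1, which delivers charged tRNA to the ribosome, had 489.6 FPKM in GFP+ and 1803 FPKM in GFP- cells (-1.88), and is listed at chr9:78478454-78481724. Its exchange factor subunits Eef1g, Eef1b2 and Eef1d had 17.0, 20.2 and 33.7 FPKM in GFP+ against 81.8, 78.5 and 108 FPKM in GFP- cells (-2.20, -1.90 and -1.64). Eef2, which moves the ribosome by a codon, had 271 and 629 FPKM (-1.21). Eef1e1 had 16.6 and 94.3 FPKM (-2.44). Despite its name its product, AIMP3, is a scaffold of the multisynthetase complex. The counts and medians of this group include Eef1e1, which was the lowest of the 6 as deposited and after centring (-1.99). After centring on length the median was -1.22, and 5 of the 6 genes were at least 2-fold lower (against 11.4% of all genes), all but Eef2 at -0.95. No other group of 5 or more genes had so low a centred median.

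Eef2k, the kinase that stops elongation by phosphorylating eEF2, had 4.41 FPKM in GFP+ and 11.5 FPKM in GFP- cells (-1.21). Eef1a2, the form of eEF1A used by muscle and neurons, was near 0 in both, at 0.0442 and 0.0354 FPKM. The release factors differed from each other: Etf1, which reads the stop codon, had 35.2 and 58.7 FPKM (-0.72), whereas Gspt1, its GTPase partner, had 61.7 and 30.5 FPKM (1.00), just under the 2-fold rule on this scale and at 1.05 after centring. Gspt2, a copy of Gspt1 that lacks introns, had 0.0141 FPKM in GFP+ and 0.0494 FPKM in GFP- cells, and Eif4e1b, the oocyte form of eIF4E, was listed at 0 in both.

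The cytosolic synthetases were divided. As deposited 7 of 21 genes were at least 2-fold lower (33.3%, against 23.1% of all genes), 14 lay within 2-fold and none was 2-fold higher (against 20.1%), and 8 were above 0. Under either other scaling 0 genes were at least 2-fold lower (against 12.5% and 10.4% of all genes). At least 2-fold higher were 3, namely Gars, Aars and Tarsl2 (against 30.2% and 33.3% of all genes). The median of the 21 genes was -0.63 as deposited, and -0.34 after centring, over 20 of them. It was -0.14 with the median ratio set to 0 and -0.02 with both libraries brought to 1 summed FPKM, each time below the median of all genes. Farsb and Farsa, the subunits of the phenylalanine enzyme, had 74.7 and 29.1 FPKM in GFP+ against 212 and 71.7 FPKM in GFP- cells (-1.49 and -1.27). Hars and Vars, for histidine and valine, had 22.9 and 64.5 FPKM in GFP+ against 64.8 and 161 FPKM in GFP- cells (-1.46 and -1.30). These 4 genes had the lowest differences of the group. Qars, Kars and Rars, for glutamine, lysine and arginine, were at -1.27, -1.04 and -1.01, and Dars, Wars, Cars, Tars, Mars and Nars lay between -0.98 and -0.57. After centring only Vars, at -1.39, was past 2-fold in this direction.

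Gars, for glycine, was the most abundant synthetase in GFP+ cells, with 399 FPKM there and 225 FPKM in GFP- cells (0.83). It stood 1.36 above genes of like transcript length, and is listed at chr6:55038001-55079504. Aars, for alanine, had 117 and 68.8 FPKM (0.76). Tarsl2, a second cytosolic threonine enzyme, had 7.43 and 3.86 FPKM (0.79), while the main enzyme Tars had 64.7 and 101 FPKM (-0.63). Eprs, Iars, Sars, Yars and Lars were also above 0, between 0.07 and 0.31. Differences over the 20 genes with 10 FPKM or more in each library followed transcript length, with r = 0.62 and rho = 0.63.

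**Figure D5:**
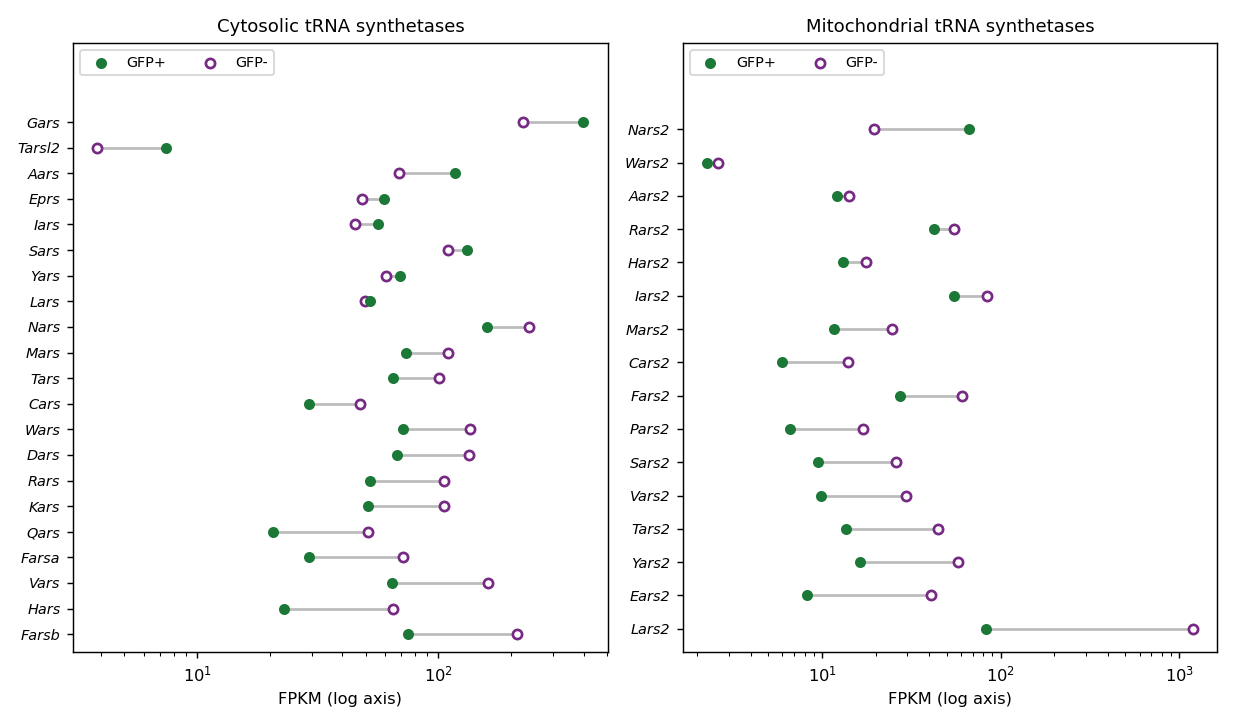
FPKM (log axis) of 21 cytosolic and 16 of 17 mitochondrial tRNA synthetases in GFP+ cells (filled green) and GFP- cells (open purple), 1 library each, ordered by their difference. The green point lies to the right for 8 cytosolic genes and for Nars2 among the mitochondrial genes, and Lars2 at the bottom has the widest gap, 82.9 FPKM in GFP+ and 1198 FPKM in GFP- cells.

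Several cytosolic synthetase genes are known targets of ATF4, the transcription factor of the amino acid and stress response, which binds with C/EBP partners to a composite element. Promoter windows of 250 bases before to 50 after the start, from RefSeq on GRCm38.p6, were searched for TGATGNAA on both strands, where N is any base. A window was found for 73 of the 99 genes, and 7 of them held the motif (9.59%, against 4.51% of 27025 genes and 3.97% of 32851 windows). Of 13 cytosolic synthetases with a window 5 held it (38.5%), and of 14 mitochondrial synthetases none did. The other 2 genes were Eef2k and Eif2s3x. Cars, Hars, Lars, Mars, Nars, Rars, Vars and Wars had no window. The 5 windows are shown because they are the synthetase promoters that hold the motif, trimmed to up to 40 bases on either side of it except for Aars, which has 2 matches and is shown whole. Capitals mark the match, in the sense of TGATGNAA for Yars and on the opposite strand for the others.
Gars (chr6:55037931-55038018, + strand): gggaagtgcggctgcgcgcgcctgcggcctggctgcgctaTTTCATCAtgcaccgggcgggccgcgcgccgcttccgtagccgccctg
Iars (chr13:49682097-49682179, + strand): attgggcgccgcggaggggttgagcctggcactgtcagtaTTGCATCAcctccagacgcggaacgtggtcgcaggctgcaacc
Tars (chr15:11399626-11399713, - strand): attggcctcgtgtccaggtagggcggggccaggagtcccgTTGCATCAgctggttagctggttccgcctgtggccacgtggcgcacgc
Yars (chr4:129189866-129189952, + strand): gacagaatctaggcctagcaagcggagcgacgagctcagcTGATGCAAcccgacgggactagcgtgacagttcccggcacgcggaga
Aars (chr8:111033592-111033891, + strand): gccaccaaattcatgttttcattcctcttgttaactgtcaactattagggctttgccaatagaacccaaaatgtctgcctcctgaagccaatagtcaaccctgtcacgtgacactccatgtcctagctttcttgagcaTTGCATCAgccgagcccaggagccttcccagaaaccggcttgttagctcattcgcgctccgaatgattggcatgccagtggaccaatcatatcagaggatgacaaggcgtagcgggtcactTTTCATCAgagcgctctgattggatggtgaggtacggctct
The match began 30 bases before the start in Gars, 15 before it in Tars, 8 after it in Iars, 4 after it in Yars, and 112 before and 10 after it in Aars.

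The 5 genes with the motif had differences between -0.63 (Tars) and 0.83 (Gars), with a median of 0.30, and 4 of them were above 0. The 8 with a window and no match, namely Dars, Eprs, Farsa, Farsb, Kars, Qars, Sars and Tarsl2, had differences between -1.49 and 0.79, with a median of -1.01. Of these, Eprs, Sars and Tarsl2 were above 0 as well, at 0.31, 0.26 and 0.79. The ranges overlap, and a match in a window is a description of its letters and not a binding site. Transcripts were 2380 to 5750 bases long for the 5 genes with the motif (median 4005) and 1826 to 4906 bases for the 8 without (median 2495), again overlapping. After centring on length the values were -0.70 to 1.36 with the motif (median 0.48) and -0.95 to 0.37 for the 7 genes without it that have a centred value (median -0.42).

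Mitochondrial synthetases were lower more uniformly, with 16 of 17 genes below 0 as deposited and a median of -1.14 (-0.55 with both libraries brought to 1 summed FPKM). At least 2-fold lower were 11 of the 17 (64.7%, against 23.1% of all genes). Under the other scalings 6 and 5 genes were at least 2-fold lower (against 12.5% and 10.4% of all genes), and 5 and 6 were above 0. Ears2, for glutamate, had 8.26 FPKM in GFP+ and 40.8 FPKM in GFP- cells (-2.17). Yars2 and Tars2, for tyrosine and threonine, had 16.4 and 13.7 FPKM in GFP+ against 57.5 and 44.5 FPKM in GFP- cells (-1.75 and -1.63). Vars2, Sars2, Pars2, Fars2, Cars2 and Mars2 lay between -1.50 and -1.01, with Fars2 at -1.14 and at -0.47 after centring. Iars2, Hars2, Rars2, Aars2 and Wars2 lay between -0.60 and -0.14 as deposited; all but Iars2 were above 0 with the median ratio set to 0, and all 5 were with 1 summed FPKM. Over the 10 genes with 10 FPKM or more in each library, the difference and log2 transcript length had r = -0.02 and rho = 0.03, and the centred median was -0.65. Lars2, described below, is among these 10, at -3.86 after centring. So is Mars2, at -1.24, which enters with a transcript of 11294 bases although its listed locus, chr1:55237177-55240058, is shorter.

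Nars2, the mitochondrial asparagine enzyme, was the exception. It had 66.5 FPKM in GFP+ and 19.5 FPKM in GFP- cells, a ratio of 3.41 (1.72, and 1.76 after centring), and its GFP+ value lies above the GFP- upper bound of 46.6 FPKM. It is listed at chr7:96951527-97064757. Its level was the second of the mitochondrial synthetases in GFP+ cells, after Lars2.

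Lars2, the mitochondrial leucine enzyme, had 82.9 FPKM in GFP+ and 1198 FPKM in GFP- cells, 14.5-fold lower in GFP+ (-3.84). It is listed at chr9:123366940-123462664. The Lars2 locus is known to collect fragments of ribosomal RNA, and the row for the ribosomal RNA precursor, Rn45s, had 220.2 FPKM in GFP+ and 672 FPKM in GFP- cells (-1.60). The part of such fragments in Lars2 was not tested. Without Lars2 the mitochondrial median was -1.12, with 10 of 16 genes at least 2-fold lower (62.5%, against 23.1% of all genes). The centred median was then -0.47, over 9 genes. The median of all translation genes kept its value of -1.01.

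Genes around the machinery, which the naming rule does not take in, were described from 6 further lists. In the stress branch of translation control, where kinases phosphorylate eIF2 and ATF4 is made, the median over 25 genes was 0.24, with 7 genes at least 2-fold higher (28%, against 20.1% of all genes) and 4 lower (16%, against 23.1%). With the median ratio set to 0 the median was 0.64, with 8 higher and 4 lower (against 30.2% and 12.5% of all genes). With 1 summed FPKM it was 0.75, with 9 higher and 3 lower (against 33.3% and 10.4%). Ppp1r15a, which directs the phosphatase that reverses eIF2 phosphorylation, had 199 FPKM in GFP+ and 16.7 FPKM in GFP- cells (3.50). Nupr1, a stress-induced nuclear protein, had 472 and 50.6 FPKM (3.20), and Vldlr, a lipoprotein receptor, had 14.2 and 1.44 FPKM (2.64). Cebpb, a partner of ATF4, had 6.05 and 33.2 FPKM (-2.28). Atf4 itself had 191 and 182 FPKM (0.07, and 0.96 centred). Its amino acid synthesis target Asns had 402 and 395 FPKM (0.02, and 0.72 centred), both within 2-fold. After centring on length the median of the list was 0.92, over the 19 genes with 10 FPKM or more in each library. Of the 19 genes 7 were then at least 2-fold higher (against 11.9% of all genes) and 2 lower (against 11.4%). The motif searched above was in 6 of 23 windows of this list (26.1%), those of Asns, Chac1, Nupr1, Slc7a11, Trib3 and Vldlr.

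In the mTOR branch the median over 16 genes was 0.10, with 2 genes at least 2-fold higher (12.5%, against 20.1% of all genes) and 1 lower (6.25%, against 23.1%). With the median ratio set to 0 the median was 0.47, with 5 higher and 0 lower (against 30.2% and 12.5% of all genes). With 1 summed FPKM it was 0.58, with 7 higher and 0 lower (against 33.3% and 10.4%). After centring on length it was -0.03, over 9 genes. Tsc2, a brake on mTOR, had 24.2 FPKM in GFP+ and 9.10 FPKM in GFP- cells (1.32), Rptor, the mTOR partner that recruits its substrates, had 9.27 and 3.71 FPKM (1.12), and Pdcd4, an inhibitor of the eIF4A helicase, had 42.3 and 98.0 FPKM (-1.19). Akt1s1, an mTOR inhibitor listed in a joined row with Mir707, had 55.2 and 110 FPKM (-0.98). Factors of poly(A) binding, recycling and rescue had a median of -0.17 over 19 genes. It turned to 0.32 with the median ratio set to 0 and to 0.44 with 1 summed FPKM. Both were below the median of all genes under the same scaling (0.35 and 0.46). As deposited 2 of these genes were at least 2-fold higher (against 20.1% of all genes) and 3 lower (against 23.1%). Under either other scaling 5 were higher (against 30.2% and 33.3%) and 1 was lower (against 12.5% and 10.4%). Mcts1, which helps recycling, had 23.9 and 77.2 FPKM (-1.65), Gtpbp2, a GTPase of ribosome rescue, had 21.2 and 7.41 FPKM (1.40), Paip2b, a poly(A)-binding protein inhibitor, had 2.98 and 8.72 FPKM (-1.29), and the helicase Ddx3x had 93.9 and 45.0 FPKM (1.05).

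The other 3 lists had medians below 0 as deposited and under both scalings, with 1 summed FPKM at -0.43 for the multisynthetase list, -0.23 for factor modification and -0.15 for the mitochondrial factors. Multisynthetase scaffold and synthetase-like genes had a median of -1.04 over 11 genes, with 7 at least 2-fold lower (63.6%, against 23.1% of all genes) and none higher as deposited. Under either other scaling 2 were lower (against 12.5% and 10.4% of all genes), and 1 was higher with 1 summed FPKM (against 33.3%). Aimp2, the core scaffold, had 29.2 FPKM in GFP+ and 159 FPKM in GFP- cells (-2.40), and Pstk, which helps make selenocysteine tRNA, had 11.3 and 68.3 FPKM (-2.50). After centring on length the median over the 9 of them with 10 FPKM or more in each library was 0.01. The enzymes that modify factors had a median of -0.81 over 11 genes, and of 0.24 after centring, over 6 of them. As deposited 4 of the 11 genes passed 2-fold in the lower direction (36.4%, against 23.1% of all genes), and 0 did after either rescaling (against 12.5% and 10.4%). Among the 4 were Dph7 and Dph5, which build diphthamide on eEF2, at -1.31 and -1.27, and Dohh, the last enzyme of hypusine synthesis, with 65.2 FPKM in GFP+ and 134 FPKM in GFP- cells (-1.03, and 0.03 centred). Mitochondrial translation factors had a median of -0.70 over 14 genes, and of -0.26 after centring, over 5 of them. As deposited 5 of the 14 genes passed 2-fold in the lower direction (35.7%, against 23.1% of all genes), and 3 did after either rescaling (against 12.5% and 10.4%). Tsfm and Tufm, the mitochondrial elongation factors, had 31.8 and 5.41 FPKM in GFP+ against 141 and 16.2 FPKM in GFP- cells (-2.11 and -1.42). The recycling factor Mrrf had 3.96 and 20.3 FPKM (-2.11).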

How the data were processed

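Polyadenylated RNA of sorted GFP+ and GFP- organoid cells was measured, 1 library each. The authors deposited FPKM per gene row with bounds and a status, per the file headers. Per the submitters' processing notes, FastQC, TopHat2 0.7, Cufflinks and Cuffdiff were used with mm10. The gene annotation, how the libraries were scaled and how multiply mapped fragments were counted were not given in the sources used here. Low deposited values come in steps that give about 59.6 (GFP+) and 59.1 (GFP-) fragments per FPKM and kilobase, taken as a guide to depth.

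FPKM was summed per symbol (23532 symbols estimated in both libraries; 5 had no estimate in GFP+ cells), and log2(FPKM + 1) differences were taken for symbols that reached 1 FPKM in the higher library. All 99 translation genes had a row of their own with an estimate, and 24 share their locus field with another row. Locus starts were shifted to count from 1. Transcript lengths are the longest coding transcript in GENCODE M21, and the centring on length was tested on simulated data. Alternatives were pseudocounts of 0.1 and 5, other filters, 2 scalings and leaving out Lars2, with centring on length and leaving out shared loci added after seeing the data. Named were, in each role, the 2 most abundant genes and up to 4 with the largest difference, every paralog pair, genes 2-fold against their role's direction, and up to 4 per further list; other translation genes were added where a group is described. The rule, the lists and the tests were chosen with earlier results of these data known. Python 3.11.15, numpy 2.4.6, pandas 2.3.3 and matplotlib 3.10.9 were used. Single values of 1 synthetase and 1 marker are not reported here.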

Additional observations from a re-analysis of the deposited data

How the results depend on the processing

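With the median ratio set to 0, the counts were 13 genes at least 2-fold higher, 25 at least 2-fold lower and 1 at least 4-fold lower, and the medians of eIF2 (0.000125) and eIF4 (0.19) changed sign. With both libraries brought to 1 summed FPKM, they were 14, 19 and 1; the median of all translation genes was -0.42, that of the eIF1 group -0.10, eIF2 0.12, eIF2B -0.60, eIF3 -0.93, eIF4 0.31, the elongation factors -1.28, the cytosolic synthetases -0.017 and the mitochondrial ones -0.55. These moves follow from the scaling itself, which adds nearly the same amount to every gene. Both scalings raise the GFP+ values, so the 4 genes at least 2-fold higher as deposited had to stay so. Of the 49 lower ones 25 and 19 stayed at least 2-fold lower. With a pseudocount of 5, 1 gene was at least 4-fold higher and 2 were 4-fold lower. Of the alternatives chosen after seeing the data, centring on length left 17 genes 2-fold lower, 1 gene 4-fold lower and 0 genes 4-fold higher, with medians of -0.49 for eIF2B, -0.62 for eIF3 and -1.22 for the elongation factors. It covers 79 genes and has no value for Eif4e3 and Eif4g3. Without genes at shared loci 1 gene was 4-fold higher, since Eif4g3 drops out. The gap in the share of summed FPKM was -0.34 percentage points without the 100 most abundant genes, against -0.62 with them. The other 86 values of these summaries under all alternatives kept their sign and differed from the reported ones by at most 1.5-fold, among them a count of 3 genes higher by 4-fold or more, against 2, at pseudocount 0.1 and under both scalings. No paired analysis was possible because there was 1 library per fraction, and for the same reason no library could be left out.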
